A study of Homo sapiens with 6 samples.

Results

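The proteins of the mitochondrial ribosome were examined through the messenger RNAs of their nuclear genes. Members were the protein-coding genes whose GENCODE symbol is MRPL or MRPS followed by a number. There were 78 of them among the 60612 genes listed per library, 49 named MRPL for the large subunit and 29 named MRPS for the small subunit. HCT116 is an established human colorectal carcinoma cell line. The control cells, LV-NC, had been infected with a negative control lentivirus, and the LV-SNORA28 cells with a lentivirus carrying SNORA28, an H/ACA small nucleolar RNA. Both viruses were built on the GV235 vector, and cells were collected 3 days after infection. Poly(A)-selected, stranded RNA was sequenced as paired ends in 3 libraries per group, named LV-NC 1 to 3 and LV-SNORA28 1 to 3, to ask what SNORA28 overexpression changes. No label says that the libraries of a group came from separate cultures, so the p-values below measure the spread between these libraries, which may be technical.

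The mitochondrial ribosome translates the few messages that the mitochondrial genome encodes, all of them for inner-membrane subunits of the respiratory chain and ATP synthase. Its ribosomal RNAs are made inside the organelle, whereas each of its proteins is encoded in the nucleus, made in the cytosol and imported. Part of these proteins descend from those of bacterial ribosomes, and the others were added during the evolution of mitochondria.

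Values are FPKM, fragment counts divided by transcript length and by the number of mapped fragments, so they can be compared between genes per unit of length. Read depth was not given, and no counting error could be attached to a value. Between 11664 and 12259 genes per library had at least 1 FPKM. SNORA28 had 0.92, 0 and 0.64 FPKM in LV-NC 1 to 3 and 15.01, 13.66 and 15.20 FPKM in LV-SNORA28 1 to 3. Its log2 fold change was 3.41 (SE 0.23, limma adjusted p = 0.00228), so the target gene followed the labels. The libraries were poly(A)-selected, so these values need not be the cellular level of the mature RNA. Which form of the RNA was measured was not determined. The epithelial markers EPCAM, CDH1, KRT8, KRT18 and KRT19 lay between 9.65 and 411.55 FPKM over the libraries, whereas PTPRC, COL3A1, PECAM1, VWF and ALB, which mark other cell types, were at most 0.22 FPKM. COL1A1, a fibroblast marker, lay between 3.16 and 4.46 FPKM with overlapping groups. Genes encoded by the mitochondrial genome made up 44.4% ± 2.83 of all FPKM in the LV-NC libraries against 37.3% ± 1.25 in the LV-SNORA28 libraries (SD, n = 3 each). Summed FPKM over all genes was 349575 ± 21861.3 in LV-NC and 315045 ± 7834.5 in LV-SNORA28 (SD, n = 3 each). Dividing each value by its library's nuclear FPKM sum moved the all-gene median log2 fold change from 0.0851 to 0.0635. The part of the mitochondrial share in single nuclear values was not tested.

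All 78 members averaged 1 FPKM or more and were tested. Their mean levels ran from 1.85 FPKM for MRPL42 to 116 FPKM for MRPL12, with a median of 15.5 FPKM, against a median of 5.26 FPKM over the 12076 genes tested. Of the 78, 47 lay within 2-fold of the members' median. The median level was 16.5 FPKM for the MRPL genes and 11.0 FPKM for the MRPS genes. Members with longer annotated exons had lower levels, with a Spearman correlation of -0.685 across the 78 genes. This is a description over genes that share libraries and a length normalization, and the exonic length counts every annotated transcript. MRPL42, at the bottom of the range, has 16368 exonic bases, and MRPL12, at the top, has 1009.

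MRPL12 belongs to the flexible stalk of the large subunit and is also known to bind the mitochondrial RNA polymerase. Its level was 101.67, 112.25 and 119.85 FPKM in LV-NC and 109.75, 124.66 and 124.84 FPKM in LV-SNORA28. The groups overlapped, and the log2 fold change was 0.11 (SE 0.0859, limma adjusted p = 0.47). The next MRPL genes by level were MRPL51, MRPL45, MRPL41 and MRPL18, with means between 43.8 and 52.8 FPKM in LV-NC. MRPL45, which sits at the exit of the peptide tunnel and faces the inner membrane, was among the steadiest genes, with 47.53, 48.10 and 46.54 FPKM in LV-NC and 50.46, 50.76 and 52.17 FPKM in LV-SNORA28. Its groups did not overlap, but the difference was small (log2 fold change 0.11, limma adjusted p = 0.22). Among the MRPS genes the highest were MRPS18B, MRPS34, MRPS21, MRPS26 and MRPS18A, with LV-NC means between 31.0 and 53.8 FPKM, and none of them passed the test (limma adjusted p from 0.46 to 0.89).

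**Figure D1:**
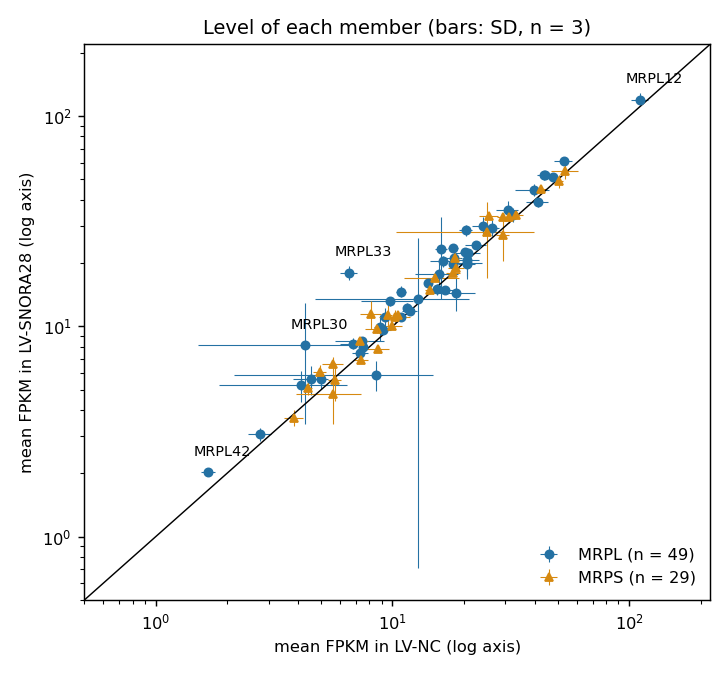
Mean FPKM of each of the 78 members in LV-NC (horizontal, log axis) and LV-SNORA28 (vertical, log axis), with circles for MRPL genes, triangles for MRPS genes and bars for the SD of 3 libraries. Most points lie near the line of equal levels, MRPL33 lies farthest above it among the genes with narrow bars, and MRPL12 has the highest level in both groups.

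Between LV-SNORA28 and LV-NC, 5 members were called at an adjusted p below 0.05 in limma, all of them higher in LV-SNORA28. They were MRPL33, MRPL3, MRPL13 and MRPL39 of the large subunit and MRPS10 of the small subunit. The 5 make up 6.41% of the members, and 6.81% of all genes tested were called higher, so the share of members called is near the background. No member was called lower, where 2.10% of all genes tested were. At an unadjusted p below 0.05 there were 21 members higher (26.9%) and 0 lower, against 22.0% and 6.08% of all genes tested, so the share of members higher is near the background here too. The authors' numeric cut-off, a fold change above 1.5 and a p below 0.05, was also applied to this limma fit, with unadjusted p. Only MRPL33 then passed as higher and no member as lower. The authors' own test may differ, so their list of genes need not be the same. The background at that cut-off was 2.58% of genes higher and 1.22% lower. Which of the 5 were called depended on single libraries. MRPL33 alone was called without LV-NC 3, without LV-SNORA28 2 or without LV-SNORA28 3, only MRPL3 and MRPL33 without LV-NC 1 or LV-NC 2, and 4 of the 5 without LV-SNORA28 1.

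By subunit, 4 of the 49 MRPL genes and 1 of the 29 MRPS genes were called, beside 6.81% of all genes tested called higher. The median log2 fold change was 0.15 for MRPL genes and 0.09 for MRPS genes, beside 0.09 for all genes tested. A log2 fold change above 0 was found in 41 of the 49 MRPL genes and 22 of the 29 MRPS genes, or 80.8% of the members together, against 66.7% of all genes tested. In 26 members (33.3%), 17 MRPL and 9 MRPS genes, all 3 LV-SNORA28 libraries lay above all 3 LV-NC libraries, where 27.0% of all genes tested did. The reverse order was found in 0 members and in 8.16% of all genes tested. Whether the subunits differ from each other, or from other genes, was not tested. In bulk RNA such as this, a change in RNA per cell and a change in which cells are present cannot be told apart.

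**Figure D2:**
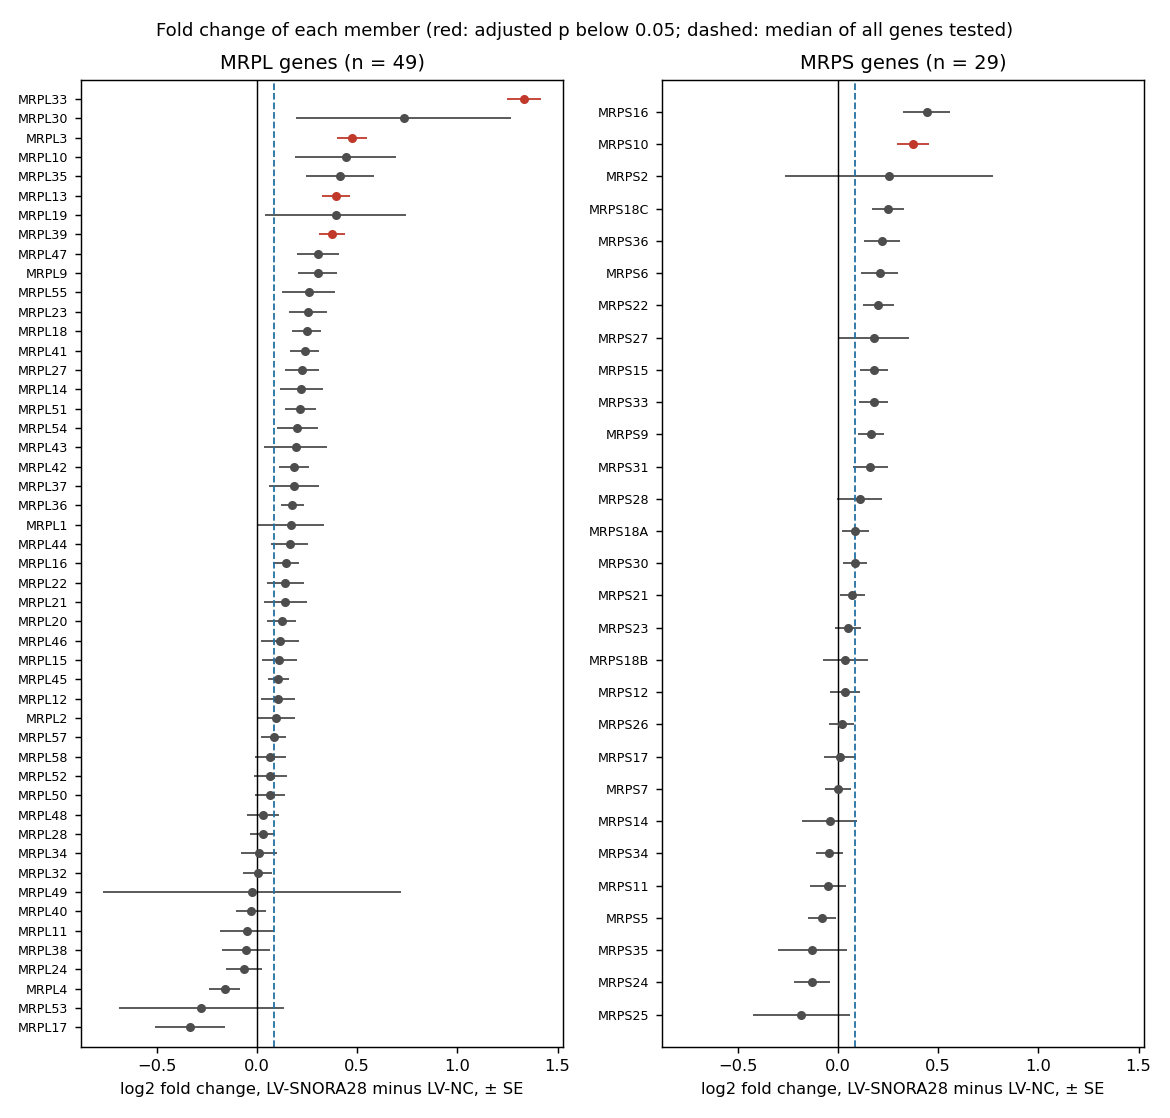
Log2 fold change of each member on the log2(FPKM + 1) scale, LV-SNORA28 minus LV-NC, with its standard error, for 49 MRPL genes (left) and 29 MRPS genes (right). Red points have an adjusted p below 0.05, the dashed line is the median of all genes tested (0.09), and MRPL33 stands apart at 1.33 while MRPL30, MRPL49, MRPL53 and MRPS2 have the widest bars.

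MRPL33 (ENSG00000243147, GRCh38 chromosome 2, 27771717 to 27988087, plus strand) encodes a small protein of the large subunit with a bacterial counterpart. Its level was 5.97, 7.01 and 6.65 FPKM in LV-NC and 16.37, 18.52 and 19.10 FPKM in LV-SNORA28. The lowest LV-SNORA28 library was more than 2 times the highest LV-NC library. The group means of 6.54 ± 0.528 and 18.0 ± 1.44 FPKM (SD, n = 3 each) differed by a ratio of 2.75, and the log2 fold change was 1.33 (SE 0.0866, limma adjusted p = 0.00207). Among the 12076 genes tested it ranked 12 by p and 28 by fold change upwards. MRPL33 was called in all 13 alternatives, with log2 fold changes between 1.25 and 1.45 and adjusted p from 0.00116 to 0.0231.

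The annotated MRPL33 locus runs through part of BABAM2, a gene of a deubiquitinase complex on the same strand. BABAM2 had 5.40, 6.47 and 6.32 FPKM in LV-NC and 6.55, 7.17 and 5.91 FPKM in LV-SNORA28, so its groups overlapped (log2 fold change 0.09, limma adjusted p = 0.57). RBKS, a ribokinase gene that overlaps on the opposite strand, stayed between 0.61 and 0.91 FPKM in the 6 libraries. Neither neighbour moved as MRPL33 did. The files give 1 value per gene, so the transcripts of MRPL33, which is known to be alternatively spliced, were not separated.

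MRPL3 (ENSG00000114686, GRCh38 chromosome 3, 131462212 to 131502983, minus strand) encodes the counterpart of the bacterial protein that reaches towards the peptidyl transferase centre. It had 21.65, 18.98 and 20.59 FPKM in LV-NC and 26.84, 30.25 and 29.08 FPKM in LV-SNORA28, without overlap. The means were 20.4 ± 1.34 and 28.7 ± 1.73 FPKM (SD, n = 3 each), with a log2 fold change of 0.47 (SE 0.0751, limma adjusted p = 0.0176). MRPL3 was called in 9 of 13 alternatives.

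MRPL13 (ENSG00000172172, chromosome 8) also has a bacterial counterpart. Its level was 10.33, 10.96 and 11.36 FPKM in LV-NC and 13.70, 15.48 and 14.67 FPKM in LV-SNORA28. All LV-SNORA28 libraries were higher, by a ratio of means of 1.34 (log2 fold change 0.39, SE 0.0706, limma adjusted p = 0.0247). MTBP, which starts beside MRPL13 on the opposite strand, did not pass the test (log2 fold change 0.13, limma adjusted p = 0.37). MRPL13 was called in 6 of 13 alternatives.

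MRPL39 (ENSG00000154719, GRCh38 chromosome 21, 25585656 to 25607517, minus strand) is a protein that mitochondria added to the large subunit, and its sequence resembles that of a threonyl-tRNA synthetase. It had 16.98, 18.33 and 18.74 FPKM in LV-NC and 22.53, 24.10 and 24.34 FPKM in LV-SNORA28, again without overlap. The ratio of means was 1.31, and the log2 fold change was 0.38 (SE 0.0652, limma adjusted p = 0.0228). It was called in 7 of 13 alternatives.

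MRPS10 (ENSG00000048544, GRCh38 chromosome 6, 42206807 to 42217861, minus strand), a protein of the head of the small subunit with a bacterial counterpart, was the only MRPS gene called. Its level was 22.94, 26.69 and 27.20 FPKM in LV-NC and 32.25, 34.52 and 33.44 FPKM in LV-SNORA28. LV-NC 1 was the lowest library of its group, as it was for 49 of the 78 members. LV-SNORA28 1 was likewise the lowest of its own group for 49 of the 78. The log2 fold change was 0.37 (SE 0.0793, limma adjusted p = 0.0379), and the call was lost without any one of the 6 libraries and held in 4 of 13 alternatives.

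**Figure D3:**
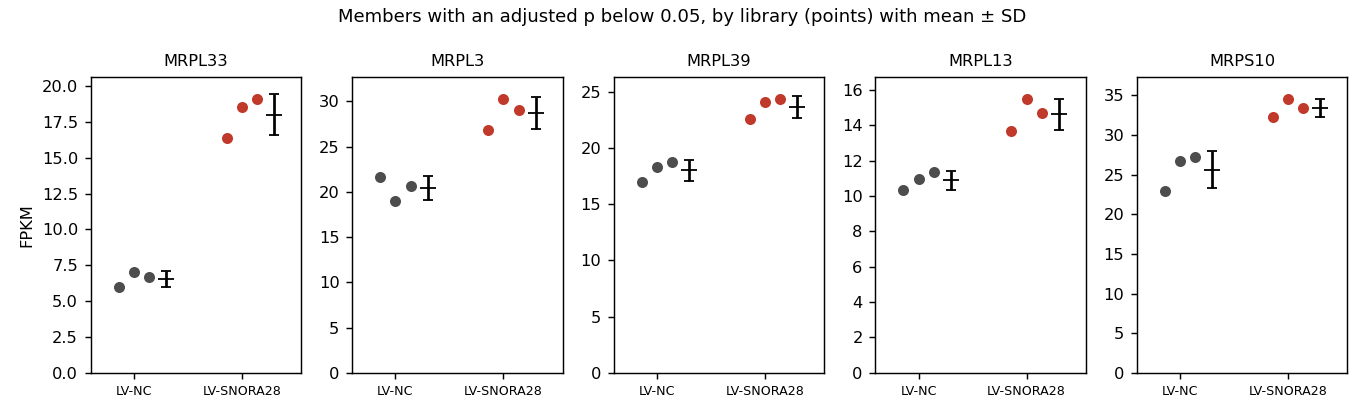
FPKM in each library (points) for the 5 members with an adjusted p below 0.05, with the mean and SD of 3 libraries per group beside the points. In each panel the 3 LV-SNORA28 libraries lie above the 3 LV-NC libraries, by a ratio of means of 2.75 for MRPL33 and between 1.30 and 1.41 for the other genes.

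Promoters of 4 of the called genes are shown because 2 sequence motifs, which the choice by name did not use, were found in part of the members' promoters. RefSeq on GRCh38.p14 gave the 300 bases around a transcription start, most of them upstream, for 69 of the 78 members, 42 MRPL and 27 MRPS genes, and MRPL13 is not among them. Capitals mark CCGGAAG, the core of sites bound by ETS factors, and AAGATGGC, a motif of the YY1 factor. MRPL33 is at chr2:27771469-27771768 on the plus strand, and MRPL3 at chr3:131502922-131503221, MRPL39 at chr21:25607432-25607731 and MRPS10 at chr6:42217812-42218111 on the minus strand.
MRPL33: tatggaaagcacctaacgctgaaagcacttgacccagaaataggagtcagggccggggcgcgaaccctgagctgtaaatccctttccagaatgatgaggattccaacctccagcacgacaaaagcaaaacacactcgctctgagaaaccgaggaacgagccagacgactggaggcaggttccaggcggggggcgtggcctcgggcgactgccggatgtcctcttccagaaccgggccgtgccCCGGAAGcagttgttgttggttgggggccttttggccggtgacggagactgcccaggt
MRPL3: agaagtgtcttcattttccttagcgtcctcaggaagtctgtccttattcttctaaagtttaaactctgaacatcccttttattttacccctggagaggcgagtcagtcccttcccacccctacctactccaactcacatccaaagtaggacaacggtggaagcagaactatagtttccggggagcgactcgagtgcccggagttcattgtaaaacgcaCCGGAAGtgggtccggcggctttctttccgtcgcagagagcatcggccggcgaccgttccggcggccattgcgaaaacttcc
MRPL39: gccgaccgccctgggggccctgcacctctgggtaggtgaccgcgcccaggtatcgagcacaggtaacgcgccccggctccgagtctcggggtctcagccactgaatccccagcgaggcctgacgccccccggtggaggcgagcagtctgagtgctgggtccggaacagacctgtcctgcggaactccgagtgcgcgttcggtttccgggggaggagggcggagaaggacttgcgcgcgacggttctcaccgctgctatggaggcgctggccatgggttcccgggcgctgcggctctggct
MRPS10: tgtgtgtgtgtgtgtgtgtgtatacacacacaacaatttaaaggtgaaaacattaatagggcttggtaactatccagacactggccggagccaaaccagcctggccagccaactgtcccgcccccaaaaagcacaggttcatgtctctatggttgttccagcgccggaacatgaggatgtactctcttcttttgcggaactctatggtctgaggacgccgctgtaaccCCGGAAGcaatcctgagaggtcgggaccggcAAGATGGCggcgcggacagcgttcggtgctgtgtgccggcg

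The ETS letters begin 8 bases before the listed start in MRPL33, 32 before it in MRPL3 and 22 before it in MRPS10, each on the strand of the gene. MRPS10 also carries the YY1 letters, and MRPL39 has neither motif in this window. Searched on both strands, CCGGAAG was present in 29 of the 69 promoters (42.0%), against 21.1% of the promoters of protein-coding genes tested and 10.7% of all promoters listed. AAGATGGC was present in 20 of the 69 (29.0%), against 5.99% and 3.03%. The 2 motifs were about as common in the MRPL promoters (40.5% and 28.6%) as in the MRPS promoters (44.4% and 29.6%). GCATGCGC, the core recognized by NRF1, was found in 8.70% of member promoters, against 5.73% of those of tested protein-coding genes and 3.27% of all. Of more general elements, GGGCGG was found in 60.9% of member promoters against 73.4% of tested protein-coding genes, CCAAT in 29.0% against 37.0%, and TATAAA in 2.90% against 4.87%. CCGGAAG and AAGATGGC can share the letters AAG where one runs into the other. Fold changes were similar in size with and without these motifs. The median log2 fold change was 0.15 for the 29 members with CCGGAAG and 0.11 for the 40 without, and it was 0.10 for the 20 with AAGATGGC and 0.16 for the 49 without. A match describes letters only and says nothing of binding in these cells.

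A further 16 members had an unadjusted p below 0.05 without passing the adjusted threshold, all with a log2 fold change above 0, between 0.16 and 0.44. With the 5 called genes they make up the 21 members at that unadjusted p, which 22.0% of all genes tested reached in the same direction. They were MRPL9, MRPL18, MRPL23, MRPL27, MRPL35, MRPL36, MRPL41, MRPL42, MRPL47, MRPL51, MRPS9, MRPS15, MRPS16, MRPS18C, MRPS22 and MRPS36, with adjusted p from 0.067 to 0.17 in limma. Nearest to the threshold was MRPS16, a small subunit protein with a bacterial counterpart, at 7.34, 8.03 and 8.97 FPKM in LV-NC and 13.42, 10.30 and 10.56 FPKM in LV-SNORA28. Its groups did not overlap, and its log2 fold change of 0.44 (SE 0.118, limma adjusted p = 0.067) was as large as that of several called genes, with a wider spread. MRPL18, in the central protuberance of the large subunit, had a log2 fold change of 0.25 (limma adjusted p = 0.080), and MRPL41 one of 0.24 (limma adjusted p = 0.090). MRPL36 had the tightest LV-NC values of these, 14.17, 14.24 and 14.05 FPKM, with 16.18, 15.50 and 16.70 FPKM in LV-SNORA28. The ratio between its groups was 1.14 (log2 fold change 0.18, limma adjusted p = 0.10).

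The other 57 members had unadjusted p above 0.05. Of these, 42 had a log2 fold change above 0 and 15 below 0. The lowest log2 fold change of the MRPL genes was that of MRPL17, a protein with a bacterial counterpart, at 19.27, 14.59 and 21.80 FPKM in LV-NC and 14.56, 16.94 and 11.84 FPKM in LV-SNORA28. The groups overlapped, and the log2 fold change was -0.34 (SE 0.175, limma adjusted p = 0.27). MRPL53 followed at -0.28 (limma adjusted p = 0.71), and the lowest MRPS genes were MRPS25 at -0.18 (limma adjusted p = 0.67) and MRPS24 at -0.13 (limma adjusted p = 0.39). Of the 15, MRPL4 had the smallest adjusted p (log2 fold change -0.16, limma adjusted p = 0.23).

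Members with a known role apart from structure, or in the other subunit from the one their symbol names, were examined individually. MRPL58, a peptidyl-tRNA hydrolase built into the large subunit, had 30.41, 33.68 and 32.55 FPKM in LV-NC and 31.24, 33.84 and 36.46 FPKM in LV-SNORA28 (log2 fold change 0.07, limma adjusted p = 0.61). MRPS36, which is now known as a component of the 2-oxoglutarate dehydrogenase complex, had 9.50, 9.96 and 9.16 FPKM in LV-NC and 10.37, 12.82 and 10.72 FPKM in LV-SNORA28 (log2 fold change 0.22, limma adjusted p = 0.17). MRPS12, in the decoding centre, stayed between 16.99 and 19.86 FPKM in all libraries (log2 fold change 0.03, limma adjusted p = 0.81). The groups overlapped for MRPL58 and MRPS12 and not for MRPS36, and none of these genes passed the test. MRPL11, at the base of the stalk, and MRPL57, added in mitochondria, had overlapping groups and log2 fold changes of -0.05 and 0.08 (limma adjusted p = 0.85 and 0.45).

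The 3 MRPS18 paralogues take different places, MRPS18A in the large subunit and MRPS18B and MRPS18C in the small subunit. Mean levels in LV-NC were 31.0 ± 1.59 FPKM for MRPS18A, 53.8 ± 7.13 FPKM for MRPS18B and 4.93 ± 0.293 FPKM for MRPS18C (SD, n = 3 each). The order of the paralogues was the same in LV-SNORA28, at 32.9 ± 1.82, 55.0 ± 4.62 and 6.05 ± 0.489 FPKM (SD, n = 3 each). Only the lowest of them, MRPS18C, had groups that did not overlap (log2 fold change 0.25, limma adjusted p = 0.11). MRPS30, like MRPS18A a large subunit protein despite its symbol, had a log2 fold change of 0.09 (limma adjusted p = 0.39).

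When members were sorted by origin, with MRPS18A and MRPS30 moved to the large subunit and MRPS36 set aside, 3 of 30 large subunit genes with a bacterial counterpart were called, 1 of 21 added in mitochondria, 1 of 16 small subunit genes with a bacterial counterpart and 0 of 10 added ones. These calls were all higher in LV-SNORA28, and 6.81% of all genes tested were called higher. At an unadjusted p below 0.05, 10, 4, 5 and 1 genes of these classes were higher, in that order, and 0 lower in each. Of all genes tested, 22.0% were higher and 6.08% lower at that unadjusted p. The median log2 fold changes of these 4 classes were 0.17, 0.09, 0.09 and 0.04, beside 0.09 for all genes tested. MRPS18A and MRPS18B were counted as added in mitochondria, although their paralogue MRPS18C was counted with a bacterial counterpart. The classes share libraries and were not tested against each other.

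Most members varied little between libraries. In 59 of the 78 the highest of the 6 libraries was less than 1.5 times the lowest, and the median of this ratio was 1.31. In 7 members it was above 2. For MRPL33 the ratio followed the groups, and for the other 6 it did not follow them or came from 1 library.

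MRPL49, a large subunit protein added in mitochondria, had 19.21, 3.66 and 15.77 FPKM in LV-NC and 5.95, 6.34 and 28.42 FPKM in LV-SNORA28, a ratio of 7.77 between its extreme libraries. Each group held libraries at both ends, and the log2 fold change was -0.02 (SE 0.744, limma adjusted p = 0.99). MRPL49 overlaps SYVN1, a ubiquitin ligase gene of the endoplasmic reticulum on the opposite strand, which fell from 11.82, 11.85 and 11.43 FPKM to 8.34, 9.36 and 9.08 FPKM (log2 fold change -0.36, limma adjusted p = 0.0262). The values of SYVN1 did not follow those of MRPL49 within either group.

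MRPL30, with a bacterial counterpart, had 2.75, 7.51 and 2.62 FPKM in LV-NC and 2.78, 11.74 and 10.02 FPKM in LV-SNORA28. It had the second-highest log2 fold change of the members, 0.73 (SE 0.537, limma adjusted p = 0.42), which did not pass the test. The high libraries were LV-NC 2, LV-SNORA28 2 and LV-SNORA28 3. MRPS2, also with a bacterial counterpart, ranged from 10.22 FPKM in LV-NC 3 to 39.60 FPKM in LV-NC 2, and from 15.20 to 35.00 FPKM in LV-SNORA28 (log2 fold change 0.25, SE 0.519, limma adjusted p = 0.79).

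MRPL53, which lies at the base of the stalk, had 4.87, 15.89 and 4.81 FPKM in LV-NC and 4.97, 6.89 and 5.86 FPKM in LV-SNORA28, so that LV-NC 2 stood alone. Without LV-NC 2 its log2 fold change turned from -0.28 to 0.23 (limma adjusted p = 0.33). CCDC142, which overlaps MRPL53 on the same strand, had its lowest value in that library, at 0.84 FPKM against 2.33 to 3.04 FPKM in the other 5. How fragments were shared between the overlapping genes was not given in the sources used here, and its part in these values was not tested.

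MRPL10, which anchors MRPL12 in the stalk, had 16.79, 16.32 and 14.99 FPKM in LV-NC and 17.66, 17.60 and 34.67 FPKM in LV-SNORA28. The first 5 of these values lay within 14.99 to 17.66 FPKM and LV-SNORA28 3 stood alone. The log2 fold change of 0.44 had an SE of 0.251 (limma adjusted p = 0.30). MRPL19 was low in a single library, with 1.66 FPKM in LV-NC 1 and between 4.23 and 6.14 FPKM in the other 5 libraries (log2 fold change 0.39, limma adjusted p = 0.51).

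**Figure D4:**
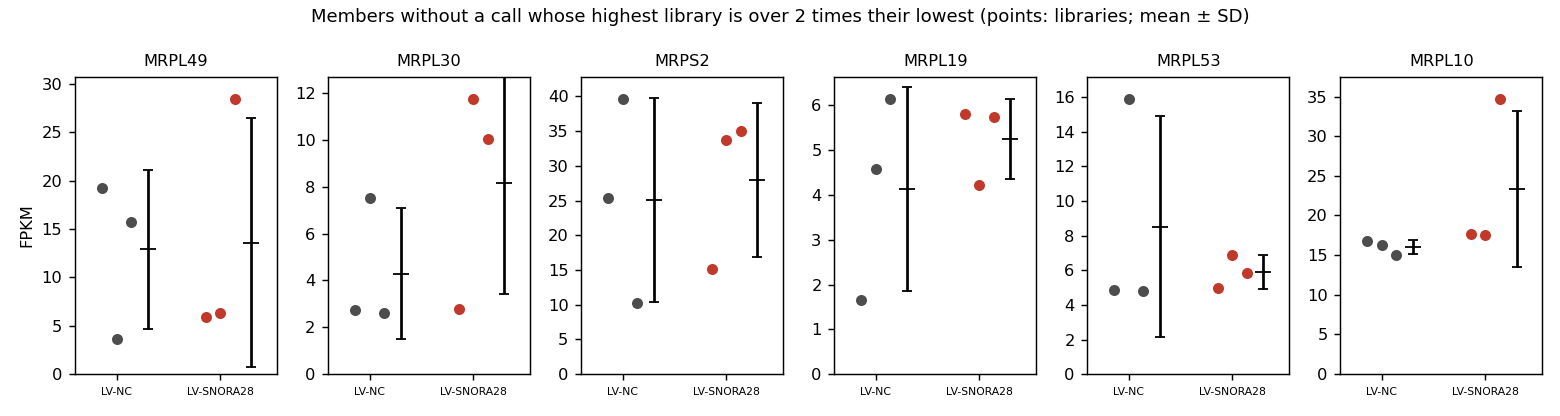
FPKM in each library (points) for the 6 members without a call whose highest library was more than 2 times the lowest, with the mean and SD of 3 libraries per group. The spread within a group is as large as the difference between groups in MRPL49, MRPL30, MRPS2, MRPL19 and MRPL53, and the difference in MRPL10 rests on the highest LV-SNORA28 library.

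Summed over the members, the FPKM of the mitochondrial ribosomal proteins was 1395, 1545 and 1511 in LV-NC and 1548, 1673 and 1682 in LV-SNORA28. The groups were separated by a narrow gap, and the ratio of their means was 1.10. The MRPL sum was 968 ± 52.2 FPKM in LV-NC and 1088 ± 53.7 FPKM in LV-SNORA28 (SD, n = 3 each), without overlap. The MRPS sum was 515 ± 31.2 and 547 ± 26.2 FPKM (SD, n = 3 each), with overlap. The ratio of the MRPL to the MRPS sum was 1.88 ± 0.0757 in LV-NC and 1.99 ± 0.0710 in LV-SNORA28, also with overlap. Taken as a share of the FPKM of nuclear genes alone, the members held 0.765% ± 0.0308 in LV-NC against 0.828% ± 0.0366 in LV-SNORA28 (SD, n = 3 each), and the groups then overlapped. The same 5 members were called when every value was divided by the nuclear FPKM sum of its library.

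The genes of the ribosome and its pathway that carry other names gave the following. Of the 5 further subunit genes DAP3, PTCD3, AURKAIP1, CHCHD1 and GADD45GIP1, none was called, and none had an unadjusted p below 0.05 in either direction in limma. Their median log2 fold change was 0.11. Only PTCD3, a pentatricopeptide repeat protein of the small subunit, had groups that did not overlap (log2 fold change 0.16, limma adjusted p = 0.20).

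Among 31 factors that assemble the ribosome or modify its RNA, 3 rose (9.68%) and 2 fell (6.45%), with a median log2 fold change of 0.06. The background over all genes tested was 6.81% called higher and 2.10% called lower. RPUSD4, a pseudouridine synthase that acts on the large ribosomal RNA of the mitochondrion, rose from 3.23, 3.30 and 3.49 FPKM to 5.46, 9.05 and 7.98 FPKM (log2 fold change 0.95, SE 0.162, limma adjusted p = 0.0218). RCC1L, which works with it on the same RNA, had a log2 fold change of 0.39 (limma adjusted p = 0.0451), and TRMT61B, an RNA methyltransferase, one of 0.38 (limma adjusted p = 0.0498). In the other direction, ERAL1, a GTPase that chaperones the small ribosomal RNA, fell from 24.57, 25.70 and 29.98 FPKM to 19.35, 17.49 and 17.29 FPKM (log2 fold change -0.54, SE 0.0909, limma adjusted p = 0.0205). MPV17L2, an inner-membrane protein needed for ribosome assembly, fell with a log2 fold change of -0.39 (limma adjusted p = 0.0248). Without single libraries the number of these factors called was between 0 and 2, and it was 0 without LV-NC 2, LV-SNORA28 2 or LV-SNORA28 3.

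Of 18 factors of mitochondrial translation, 17 were tested and 2 rose (11.8%, against 6.81% of all genes tested), with a median log2 fold change of 0.14. They were MTRF1, a release factor at a low level (1.59, 1.35 and 1.25 FPKM against 2.45, 2.32 and 1.94 FPKM, log2 fold change 0.43, limma adjusted p = 0.0471), and GFM2, which takes part in ribosome recycling (log2 fold change 0.28, limma adjusted p = 0.0441). Neither was called once any single library was left out. TUFM, the elongation factor that delivers transfer RNA and the most abundant of the list, lay between 177.26 and 199.12 FPKM (log2 fold change 0.08, limma adjusted p = 0.39).

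The ribosomal RNAs of the mitochondrion itself had log2 fold changes below 0, and MT-RNR2 alone passed the test. The call of MT-RNR2 held in 6 of 13 alternatives. MT-RNR2, the RNA of the large subunit, fell from 6069.64, 7010.57 and 5695.22 FPKM to 4400.58, 4390.27 and 4217.37 FPKM (log2 fold change -0.52, SE 0.0938, limma adjusted p = 0.0246). MT-RNR1, the RNA of the small subunit, was at 960.93, 1058.26 and 1003.43 FPKM in LV-NC and 974.00, 894.70 and 897.18 FPKM in LV-SNORA28 (log2 fold change -0.13, limma adjusted p = 0.28). Under quantile normalization the difference of MT-RNR2 was -0.02 (limma adjusted p = 0.90) and that of MT-RNR1 was 0.07. This normalization gives each rank the same value in every library, which leaves little room for a difference in a gene that stays near the top. It therefore cannot decide whether the level of MT-RNR2 changed. Selection with oligo(dT) recovers these RNAs only in part, so their FPKM is not their cellular level.

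Set beside other gene groups of the same fit, the median of the members, 0.13, lay between those of the cytosolic ribosomal proteins and the subunits of the machinery that the mitochondrial ribosome helps to build. Of 82 cytosolic ribosomal protein genes tested, 2 were called higher and 3 lower, with a median log2 fold change of -0.13 (2 higher and 26 lower at an unadjusted p below 0.05). Of 77 nuclear subunits of the respiratory chain and ATP synthase, 8 were called higher and 0 lower, with a median of 0.19 (37 higher and 0 lower at an unadjusted p below 0.05). Of all 12076 genes, 822 were called higher and 254 lower, and 2651 were higher and 734 lower at that unadjusted p. The differences between these groups were not tested.

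**Figure D5:**
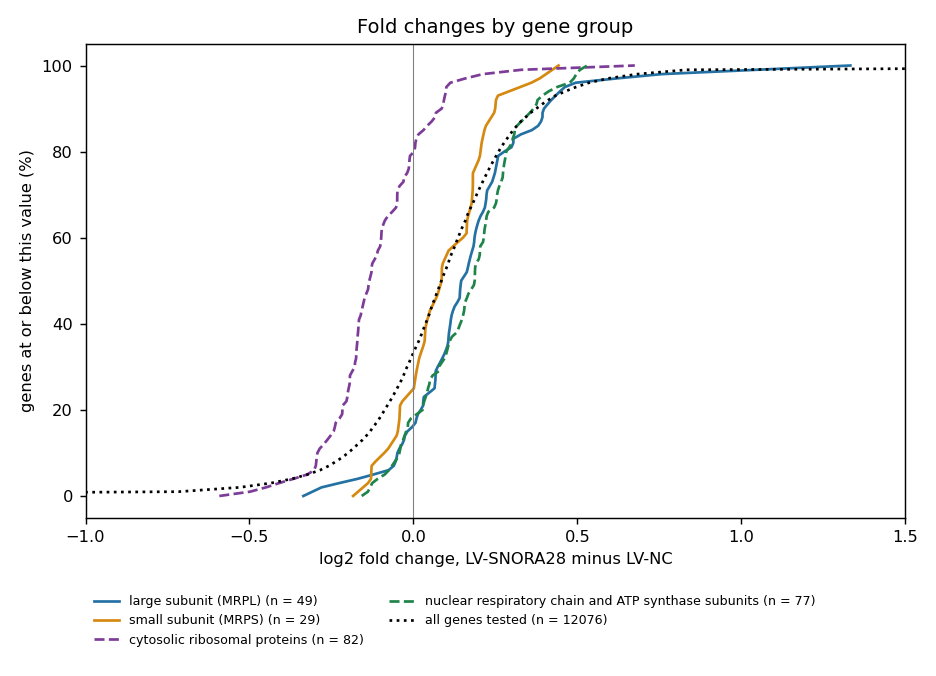
Share of genes (vertical, percent) at or below a given log2 fold change, LV-SNORA28 minus LV-NC (horizontal, log2(FPKM + 1) scale, drawn from -1 to 1.5), for 49 MRPL genes, 29 MRPS genes, 82 cytosolic ribosomal protein genes, 77 respiratory chain and ATP synthase genes and all 12076 genes tested. The medians are 0.15, 0.09, -0.13, 0.19 and 0.09 in that order, and the MRPS curve crosses the curve of all genes near its middle.

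The members are spread over 21 chromosomes, with at most 8 on any of them (chromosomes 1, 2 and 17). In 19 members the start lies head to head with that of a protein-coding gene on the opposite strand, at most 1000 bases away. Counted from each member there are 20 such pairs, so a pair of 2 members is counted from both sides. Overlaps of up to 200 bases were included, and noncoding partners were not counted. Of these partners 17 were tested, and 1 was called, TCP1, a subunit of the cytosolic chaperonin that starts 109 bases from MRPL18 (log2 fold change 0.32, limma adjusted p = 0.0356). Over all genes tested, 6.81% were called higher. The only pair of 2 members is MRPL46 and MRPS11, with 63 bases between their starts and log2 fold changes of 0.12 and -0.05 (limma adjusted p = 0.47 and 0.77). Copies of the members elsewhere in the genome had low listed values of their own. Of 79 pseudogenes named after them, 24 were above 0 in any library, and 1, MRPS31P4, had a mean of at least 1 FPKM (1.84 FPKM). Its parent, MRPS31, had 8.61 ± 0.934 FPKM in LV-NC and 9.72 ± 0.402 FPKM in LV-SNORA28 (SD, n = 3 each), and reads shared between the copies could not be told apart.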

How the data were processed

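For each library the authors deposited FPKM values per Ensembl gene, without counts or mapped totals. The submitters' processing notes name cutadapt 1.9, HISAT2 2.2.1, StringTie 2.1.6, DESeq2, edgeR and the build hg38. The role of each tool, the annotation release and any filter were not given in the sources used here. Symbols were taken from GENCODE release 44, which held 60401 of the 60612 identifiers, and 211 had none. Promoters came from RefSeq on GRCh38.p14, with the first listed start of each gene.

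The analysis used log2(FPKM + 1). A gene entered it when its mean over the libraries reached 1 FPKM, which left 12076 genes for limma 3.58.1 (lmFit, eBayes with a trend) in R 4.3.3, without covariates. Tests were two-sided, and p-values were adjusted by the Benjamini-Hochberg method over all genes tested. Fold changes on this scale understate those of low genes. The scripts were tested on simulated data. Other steps and the figures were made in Python 3.11.15.

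The genes named were, per subunit as named, those with an adjusted p below 0.05, the 5 highest by mean level, the 2 with the lowest log2 fold change and a fixed list of 12 members, and, of each pathway list, up to 6 called genes. Other members were named after their values were seen, for their spread between libraries, their nearness to the threshold or their position. Members, lists and tests were chosen with earlier results of these data known. Alternatives were no trend, quantile normalization, scaling to the nuclear FPKM sum, no filter, a minimum of 5 FPKM, a pseudocount of 0.1, a block for the replicate number, and each library left out in turn.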

Additional observations from a re-analysis of the deposited data

How the results depend on the processing

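The count of members called was 5, and it was 3 under quantile normalization, 2 without a filter and 1 to 4 when single libraries were left out. For the MRPL genes the count of 4 became 2 without a filter and 1 to 4 without single libraries. For the MRPS genes the count of 1 became 0 under quantile normalization, without a filter and without any one library. The median log2 fold change of MRPL genes was 0.0635 under quantile normalization, which moved the median of all genes from 0.09 to -0.00127. It was above the median of all genes in 13 of 13 alternatives, least so without LV-NC 1 (0.11 against 0.10). The median of MRPS genes, 0.09, was 0.00917 under quantile normalization and 0.0508 without LV-NC 1, and it was above the median of all genes in 7 of 13. At the authors' numeric cut-off, applied to the limma fits, the count of 1 was 1 to 2 without single libraries. Of 5 assembly factors, 3 were called without a trend, under quantile normalization or with nuclear scaling, 0 without a filter and 0 to 2 without single libraries. Of 2 translation factors, 1 was called without a trend and 0 under quantile normalization, with nuclear scaling, without a filter or without any one library. The cause was not tested for these changes, other than that no filter meant 32761 genes tested and a library left out meant fewer samples.

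Libraries were not paired by their replicate number, since over all genes tested the correlations of same-numbered deviations were -0.0441, 0.0914 and 0.00983. Among the 78 members, LV-NC 1 and LV-SNORA28 1 were each the lowest of their group for 49. LV-NC 2 was the highest of its group for 41 members and LV-SNORA28 2 for 37. Whether the members share an effect of the replicate number was not tested. With the number as a block, 510 genes were called instead of 1076, among them 3 members (3 MRPL and 0 MRPS genes), 1 assembly factor and 0 translation factors.

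No direction changed among the called members, the called assembly and translation factors, MT-RNR2 and SNORA28. SYVN1 and TCP1 were not followed through the alternatives. Among the other named genes, values near 0 changed sign. Under quantile normalization MRPS18B had a log2 fold change of -0.0236, MRPS26 -0.0454, MRPS30 -0.00744, MRPS12 -0.0512, MRPL57 -0.0115 and MT-RNR1 0.0698, and with nuclear scaling MRPS26 had -0.00859. Without single libraries, the range was -0.54 to 0.23 for MRPL53, -0.0755 to 0.10 for MRPS18B, -0.0863 to 0.00832 for MRPS34, -0.0274 to 0.0614 for MRPS26, -0.0264 to 0.0803 for MRPS12, -0.15 to 0.0581 for MRPL11 and -0.26 to 0.67 for MRPS2. No depth was given, so the precision of low values is known only from the spread between 3 libraries per group.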
